A study of Homo sapiens with 8 samples.

Results

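The comparison is between 2 stable lines of LNCaP, a human prostate adenocarcinoma line, in which short hairpins against METTL3 were combined with a hairpin-resistant METTL3. In the mutant rescue the introduced METTL3 was a catalytically dead mutant, while the wild-type rescue received the wild-type protein. Its members are 4 of the 8 libraries of the series, 2 for each rescue line. The other libraries, 2 of the knockdown (METTL3 hairpins with a vector) and 2 of the control (control hairpin with a vector), served to place the rescues. All 4 lines were made by lentiviral transduction and kept under puromycin at 1 µg/ml, so the hairpin, the virus and the drug were shared by both rescues. The labels do not give the mutated residue, the promoter of the introduced copy, or whether a line is a clone or a pool. Nor do they say whether the 2 libraries of a line came from separate cultures, so every p-value measures the spread between these libraries, which may be technical. Each form of METTL3 is represented by a single line, so the form and any other difference between the lines cannot be told apart.

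METTL3 is the methyltransferase of a nuclear complex that places N6-methyladenosine (m6A) on messenger RNA, mostly near stop codons and in long internal exons. METTL14 holds the RNA in the active pair, WTAP and its partners bring the pair to nuclear speckles, and RBM15 and RBM15B guide it to target transcripts. Reader proteins of the YTH family then steer splicing, translation and decay of the marked transcripts, and ALKBH5 and FTO can remove the mark. A catalytically dead METTL3 can still be made and can still bind partners, so setting it against the wild-type protein addresses the enzymatic step apart from the presence of the protein.

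Levels are given as CPM, counts relative to the library total after scaling by TMM, a normalization that sets most genes equal between libraries. Sequencing depth ran between 15200343 and 17893241 counts a library, and 15289 genes, of 27140 in all, were tested with edgeR's quasi-likelihood model fitted to all 8 libraries. Calls were made at an adjusted p below 0.05 (Benjamini-Hochberg over all tested genes), and fold changes are log2, mutant rescue minus wild-type rescue. The luminal prostate genes KLK3, TMPRSS2, FOLH1 and HOXB13 were present in every library, with HOXB13 the lowest of them at 429 CPM or more. Wild-type rescue library 1 stood apart in 15 tested genes that were at least 3 times higher in it than in library 2 (0.5 CPM added to each level), against 0 such genes in the mutant rescue. Among them were markers of basal and other non-luminal prostate cells, of which 19 of 26 listed had enough counts to be tested. KRT17, a basal keratin, was at 7.80 CPM in wild-type library 1 and 1.49 in library 2, and TGFBI at 10.96 and 3.21. The summed level of these 19 was 129 and 135 CPM in the mutant libraries, against 168 and 127 CPM in the wild-type libraries. Of those 19 markers 1 was called higher and 3 lower, but single libraries set these counts: 13 were lower without wild-type rescue library 2, 1 without wild-type rescue library 1 or mutant rescue library 1, and 0 were higher without mutant rescue library 2 or wild-type rescue library 2. With the replicate number as a block 7 were lower. Of 3 tested neuroendocrine markers 1 was called each way, and the 1 tested blood or endothelial marker was not called. The part of these RNAs in the results below was not tested.

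METTL3 itself was present at similar levels in both rescues. It stood at 333 and 334 CPM in the mutant rescue, 309 and 325 in the wild-type rescue, then 26.2 and 31.3 in the knockdown and 68.4 and 68.5 in the control. Every rescue library lay far above the knockdown and the control, and the rescue groups did not overlap. The difference between them was 0.07 (SE 0.03, edgeR adjusted p = 0.0161), and without wild-type rescue library 1 it was 0.04 (edgeR adjusted p = 0.346). The counts hold both the targeted transcript and the introduced one, so the amount of mutant message and that of wild-type message are not measured apart, and the protein was not measured.

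Transcripts of several other subunits of the methyltransferase complex were slightly higher in the mutant rescue. Of 8 tested members, METTL3 included, 6 rose and 0 fell, against 21.0% and 20.3% of all tested genes that were called higher and lower. METTL3 is 1 of the 6, and its call ended with DESeq2 (adjusted p = 0.193). RBM15, an adaptor that binds target RNA, stood at 37.3 and 37.0 CPM in the mutant rescue, against 28.4 and 26.5 CPM in the wild-type rescue (log2 fold change 0.44, SE 0.07). WTAP, the scaffold, rose by 0.25 (SE 0.04), KIAA1429, also called VIRMA, by 0.22 (SE 0.05), and RBM15B by 0.12 (SE 0.03). METTL14, the RNA-binding partner, stood at 29.4 and 29.02 CPM against 24.6 and 24.9 CPM (0.24, SE 0.07), a call that ended with DESeq2 (adjusted p = 0.0905). ZC3H13 and CBLL1 were not called, at 0.06 (SE 0.03) and 0.08 (SE 0.05). Among 11 readers and erasers 5 rose and 2 fell (1 without mutant rescue library 1 or wild-type rescue library 1), with the reader YTHDF1 at 0.32 (SE 0.04), the demethylase ALKBH5 at 0.27 (SE 0.03) and the nuclear reader YTHDC1 at 0.17 (SE 0.04).

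A large share of the transcriptome differed between the 2 rescue lines, mostly by small amounts. By edgeR 3206 genes were higher and 3101 lower in the mutant rescue, 41.3% of those tested. In a fit limited to genes at a mean of at least 10 CPM, 5629 of 10398 were called. Well-expressed genes were thus called more often, and shares called in the gene lists are to be read against both. The median absolute log2 fold change of called genes was 0.253; 3112 of them moved by less than 0.25, 928 by at least 0.5 and 185 by at least 1. The spread between libraries behind these calls was small and may be technical, with the value that edgeR names common biological coefficient of variation at 1.40%. DESeq2, the tool the submitters name, called 3749 genes, each of which edgeR also called in the same direction.

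**Figure D1:**
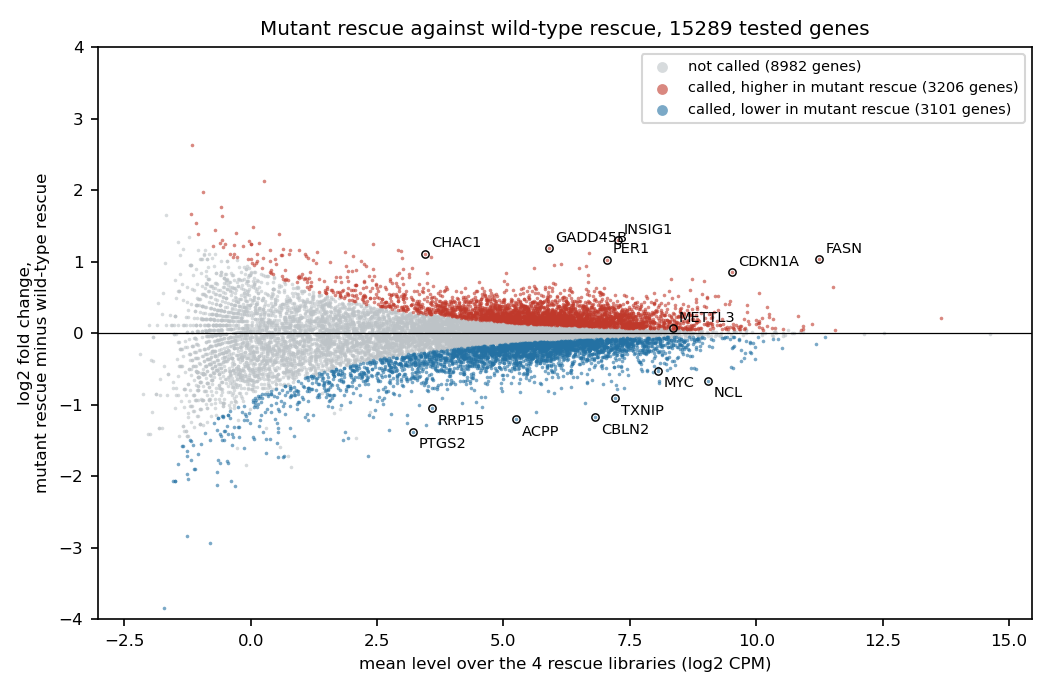
Log2 fold change of mutant rescue over wild-type rescue (vertical axis) against the mean level over the 4 rescue libraries (horizontal axis, log2 CPM) for 15289 tested genes, with called genes in red (higher) and blue (lower). Called genes lie on both sides of 0 in similar number, INSIG1 and FASN stand at the upper edge at high levels, and METTL3 lies near 0. TMM scaling centres the fold changes near 0, so the similar numbers are not read as a result about the lines.

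Agreement between libraries was looked at by letting the first library of each line choose genes and the second show them. The 100 largest rises in libraries 1, among 11580 genes at 5 CPM or more, had a median of 0.72 there and of 0.59 in libraries 2, where 96 kept their sign. The 100 largest falls had medians of -0.84 and -0.69, and 97 kept their sign. No library is in both ratios.

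INSIG1, CHAC1, PER1 and ATF3 were among the 15 largest rises. A gene was named here if it was called, averaged at least 5 CPM over the rescues, carried a gene symbol rather than a clone identifier, and showed no overlap between the groups' libraries, which held for 67.7% of all tested genes. INSIG1, the endoplasmic reticulum protein that retains the sterol sensor SCAP, stood at 219 and 216 CPM in the mutant rescue, against 87.6 and 89.1 CPM in the wild-type rescue (1.30, SE 0.04). The knockdown held 78.6 and 70.9 CPM and the control 100.01 and 95.2, so the mutant rescue alone stood high. PER1, a repressor of the circadian clock, stood at 180 and 174 CPM in the mutant rescue, against 87.4 and 86.2 CPM in the wild-type rescue (1.03, SE 0.04). CHAC1, which degrades glutathione, stood at 14.7 and 14.98 CPM against 6.64 and 7.07 CPM (1.11, SE 0.12), and here the control, at 14.2 and 16.6 CPM, overlapped the mutant rescue. ATF3, a stress-induced transcription factor, stood at 133 and 127 CPM in the mutant rescue, against 69.5 and 66.4 CPM in the wild-type rescue (0.94, SE 0.04). Others of the 15 largest rises were the adhesion protein TNS4 (1.07, SE 0.11), the dopamine receptor DRD4 (1.05, SE 0.14), FAM132A, a secreted C1q-like protein (1.15, SE 0.14), and the glucocorticoid-induced TSC22D3 (0.91, SE 0.04). In 2 of these the control was above the mutant rescue. TNS4 stood at 21.8 and 18.5 CPM in the control against 16.3 and 15.9 CPM, and TSC22D3 at 124 and 123 CPM against 122 and 114 CPM. In 11 of the 15 the control mean lay nearer to the wild-type rescue. SLC7A11-AS1, at 1.25 (SE 0.17), is antisense to SLC7A11, and LAMB2P1, at 1.16 (SE 0.14), is a pseudogene of LAMB2; both are uncertain, since it is not stated whether counting used strand and reads may be shared.

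The start-site regions of INSIG1, PER1, CHAC1 and ATF3, and of UTP4 from the ribosome assembly list, were read from RefSeq (GRCh38.p14, 250 bases before to 50 after the start; the counts themselves were made on hg19). They are shown because each carries a known response motif, set in capitals, and were chosen after values and motifs were seen; UTP4 is not among the 5 largest falls of its list. The first 3 carry an E-box, CACGTG, the site of MYC with MAX and of CLOCK with ARNTL.
INSIG1 (chr7:155297628-155297927, + strand): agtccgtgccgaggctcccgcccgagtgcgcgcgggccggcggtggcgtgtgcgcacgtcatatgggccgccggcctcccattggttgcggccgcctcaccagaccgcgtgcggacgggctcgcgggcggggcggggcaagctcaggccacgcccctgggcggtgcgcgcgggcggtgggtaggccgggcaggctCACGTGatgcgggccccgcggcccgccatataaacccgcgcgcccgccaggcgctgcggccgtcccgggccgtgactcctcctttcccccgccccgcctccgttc
PER1 (chr17:8152355-8152654, - strand): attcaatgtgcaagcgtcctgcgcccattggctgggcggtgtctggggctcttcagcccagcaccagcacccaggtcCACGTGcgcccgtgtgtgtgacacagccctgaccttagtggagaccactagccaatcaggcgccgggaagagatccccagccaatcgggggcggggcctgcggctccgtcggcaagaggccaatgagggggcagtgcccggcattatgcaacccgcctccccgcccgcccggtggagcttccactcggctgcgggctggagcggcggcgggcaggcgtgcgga
UTP4 (chr16:69132399-69132698, + strand): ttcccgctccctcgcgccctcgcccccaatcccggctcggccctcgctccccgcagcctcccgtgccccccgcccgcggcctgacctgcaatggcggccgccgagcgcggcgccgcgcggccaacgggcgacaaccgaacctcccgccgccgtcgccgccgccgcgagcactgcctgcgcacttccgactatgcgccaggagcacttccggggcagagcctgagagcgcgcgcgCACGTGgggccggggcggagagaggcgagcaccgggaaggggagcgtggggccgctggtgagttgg
The other 2 carry the amino acid response element TGATGNAA on one strand or the other, the kind of site that ATF4 binds.
CHAC1 (chr15:40953221-40953520, + strand): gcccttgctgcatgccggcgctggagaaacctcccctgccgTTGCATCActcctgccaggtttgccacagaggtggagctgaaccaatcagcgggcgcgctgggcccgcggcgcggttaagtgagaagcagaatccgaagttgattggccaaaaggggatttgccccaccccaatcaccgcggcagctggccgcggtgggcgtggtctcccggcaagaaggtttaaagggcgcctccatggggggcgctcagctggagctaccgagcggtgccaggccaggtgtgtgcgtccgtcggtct
ATF3 (chr1:212565157-212565456, + strand): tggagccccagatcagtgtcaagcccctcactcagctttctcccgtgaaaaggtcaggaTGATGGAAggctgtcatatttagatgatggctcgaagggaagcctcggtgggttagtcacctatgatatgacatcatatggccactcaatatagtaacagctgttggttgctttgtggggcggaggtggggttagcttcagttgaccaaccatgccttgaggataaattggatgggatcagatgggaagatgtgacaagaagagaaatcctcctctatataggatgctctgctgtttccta
The motif begins 55 bases before the start in INSIG1, 173 in PER1, 16 in UTP4, 209 in CHAC1 and 191 in ATF3. In all, 5 motifs were searched on both strands over 27305 promoters, and a match is not taken as a bound site. CACGTG was in 7.43% of all promoters, in 12 of 36 promoters of rRNA and ribosome assembly factors (33.3%), in 5 of 17 of clock genes (29.4%), in 5 of 24 of cholesterol genes (20.8%) and in 1 of 20 of fatty acid genes (5%). TGATGNAA was in 3.67% of all promoters and in 6 of 27 of the ATF4 list (22.2%). The sterol regulatory element TCACNCCAC was in 1.15% of all, in 1 of 24 of cholesterol genes and in 1 of 27 of the ATF4 list. The antioxidant response element TGACNNNGC was in 13.6% of all and 4 of 16 of NRF2 targets (25%). It was not particular to these, with 8 of 27 of the ATF4 list (29.6%) and 5 of 17 of clock genes (29.4%). Cholesterol, ribosome assembly and fatty acid genes had it in 16.7%, 11.1% and 10%. The D-box TTATGNAA was in 3.42% of all, 2 of 17 of clock genes and 2 of 20 of fatty acid genes. These shares are descriptions and were not tested, and promoters of the lists were not matched to others in base composition.

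PTGS2, ACPP and CBLN2 were among the 15 largest falls. PTGS2, the inducible cyclooxygenase, stood at 4.63 and 5.54 CPM in the mutant rescue, against 14.8 and 11.9 CPM in the wild-type rescue (-1.38, SE 0.13). ACPP, prostatic acid phosphatase, stood at 21.2 and 24.7 CPM in the mutant rescue, against 51.6 and 54.0 CPM in the wild-type rescue (-1.20, SE 0.06); the knockdown was at 53.4 and 51.8 CPM and the control at 19.2 and 21.1 CPM. In ACPP the mutant rescue thus lay beside the control, and the wild-type rescue beside the knockdown. CBLN2, a secreted synapse organizer, stood at 68.5 and 68.9 CPM in the mutant rescue, against 153 and 157 CPM in the wild-type rescue (-1.18, SE 0.04). TLL1, a metalloproteinase, fell by 1.26 (SE 0.11), SPTLC3, a subunit of serine palmitoyltransferase, by 1.15 (SE 0.13), and RRP15, a ribosome assembly protein, by 1.05 (SE 0.11), with the peroxisomal enzyme EHHADH at -1.14 (SE 0.17). APCDD1, an inhibitor of Wnt signalling, fell by 1.04 (SE 0.08) and SLITRK6 by 1.13 (SE 0.15). Among genes at 100 CPM or more the falls were headed by CBLN2 and TXNIP, an inhibitor of thioredoxin and of glucose uptake, which stood at 105 and 101 CPM in the mutant rescue, against 197 and 190 CPM in the wild-type rescue (-0.91, SE 0.03). CENPN, a centromere protein, fell by 0.73 (SE 0.03), the bicarbonate cotransporter SLC4A4 by 0.72 (SE 0.04), MANEA, an endomannosidase, by 0.77 (SE 0.03) and DSEL by 0.70 (SE 0.03). As in ACPP, the control mean lay nearer to the mutant rescue in PTGS2, CBLN2, TLL1, SPTLC3, SLITRK6, APCDD1, TXNIP, MANEA and DSEL. The control held 95.4 and 98.7 CPM of CBLN2 and 89.4 and 83.8 CPM of TXNIP. It lay nearer to the wild-type rescue in 7 of the 15 largest falls and in 4 of the 8 at 100 CPM or more.

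**Figure D2:**
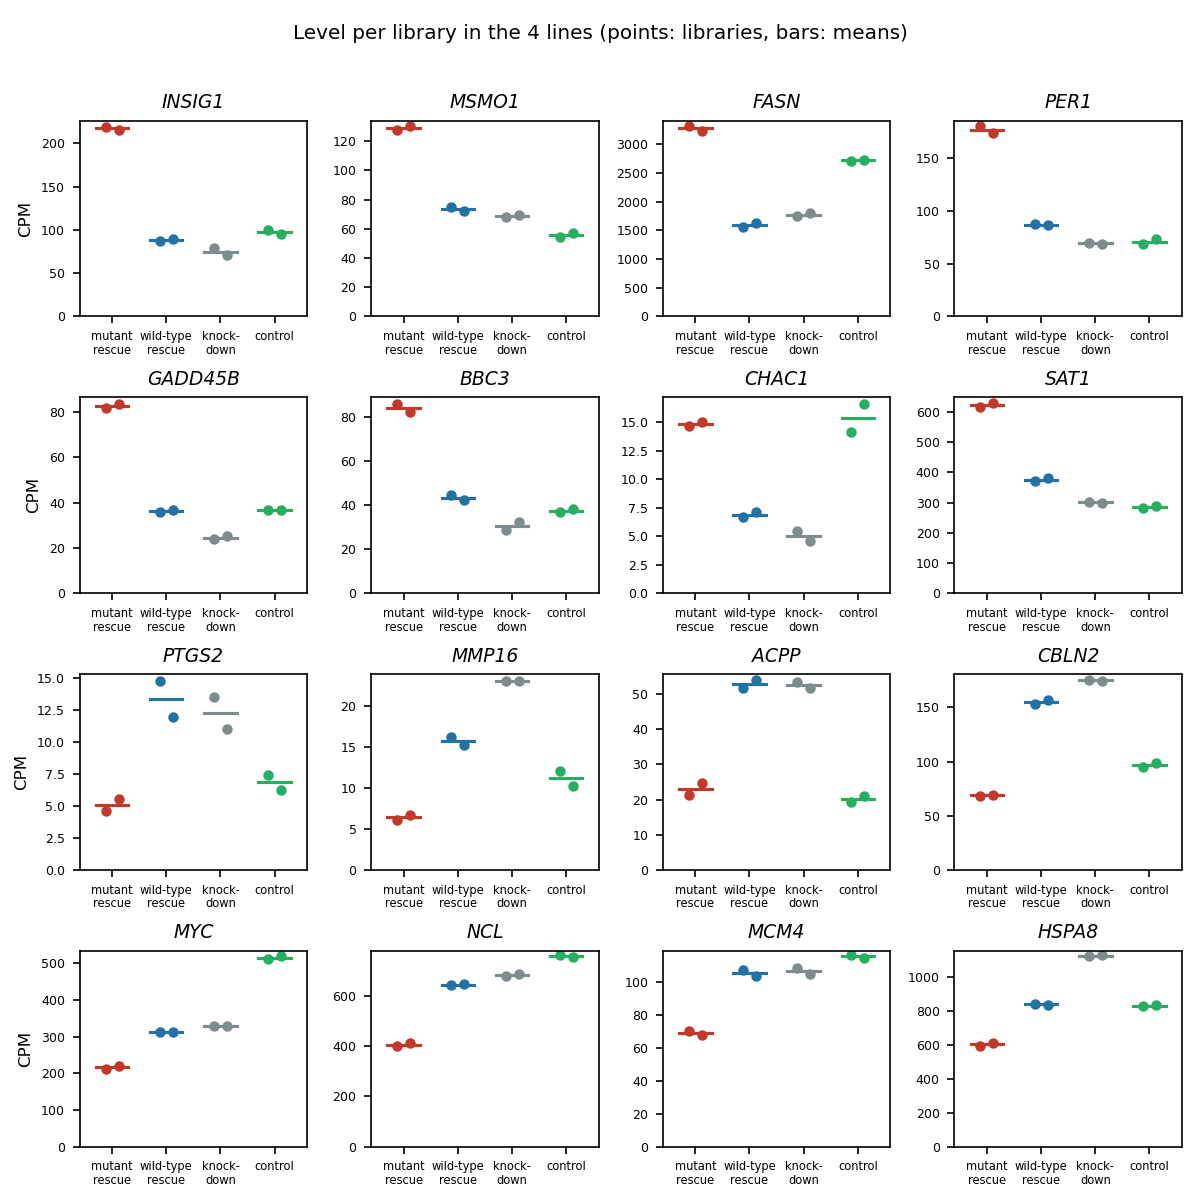
CPM of 16 genes in each library (points) of the mutant rescue, wild-type rescue, knockdown and control, with bars for the means; each panel has its own axis from 0. The 16 genes were picked by hand among called genes, so the gap between the rescues in every panel follows from that choice. In most panels the wild-type rescue lies close to the knockdown.

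Which line stood apart was read from the other libraries, whose means the contrast does not use. Those libraries do enter the filter and the estimate of spread, so the calls are not fully independent of them. Which rescue is which rests on the labels alone, since the counts do not tell mutant from wild-type METTL3 message, and what follows holds for the lines as labelled. In 5382 of the 6307 called genes (85.3%) the knockdown mean lay nearer to the wild-type rescue than to the mutant rescue, against 72.2% of all tested genes. Among the 928 genes that moved by at least 0.5 the number was 873 (94.1%). For called genes the median absolute difference from the knockdown was 0.299 for the mutant rescue and 0.101 for the wild-type rescue, in log2 units. All 15 of the largest rises and all 15 of the largest falls had this order, as had all 8 and 8 at 100 CPM or more. The control mean lay nearer to the wild-type rescue in 4402 called genes (69.8%), against 61.9% of all tested genes. That share was 72.8% among genes that moved by at least 0.5 and 65.9% among those that moved by at least 1. In the 15 largest rises it held for 11, and in the 15 largest falls for 7. GADD45B, a stress-induced regulator of growth arrest, illustrates the order against the knockdown. Its log2 fold changes over the knockdown were 1.75 (SE 0.06) in the mutant rescue and 0.57 (SE 0.07) in the wild-type rescue. MMP16, a metalloproteinase, was in the same 2 comparisons at -1.84 (SE 0.11) and -0.55 (SE 0.09). Both comparisons share the knockdown libraries.

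**Figure D3:**
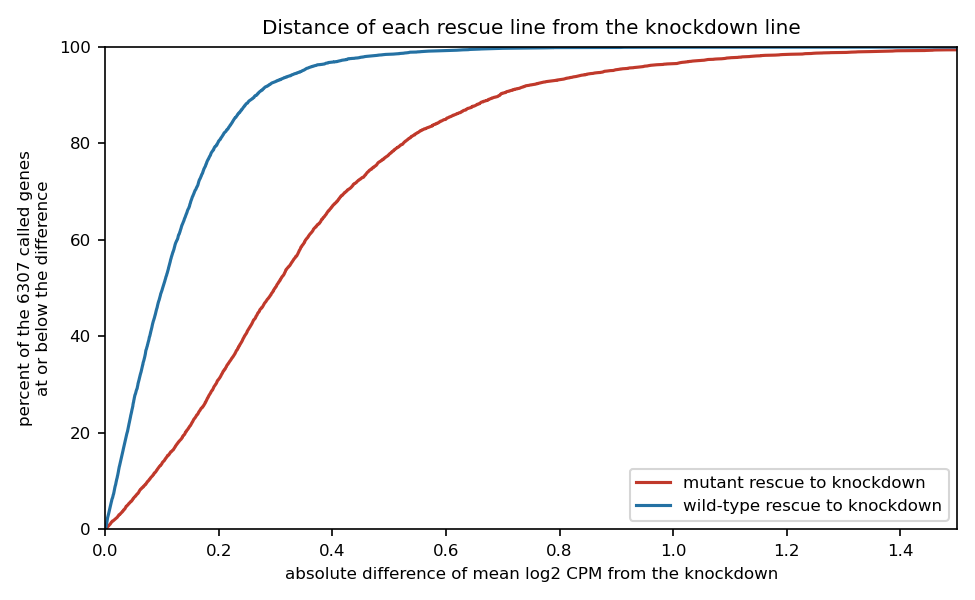
Percent of the 6307 called genes (vertical axis) whose mean log2 CPM differs from the knockdown by at most the amount on the horizontal axis, for the mutant rescue (red) and the wild-type rescue (blue). The blue curve rises first, with a median of 0.101 against 0.299 for the red curve.

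Sterol genes were among the groups that rose in the mutant rescue. Cells make cholesterol through a chain of enzymes whose genes are switched on by SREBP2 when sterols are low, and INSIG1 is a target of the same factor. Of 31 tested members 16 rose and 3 fell, with a median of 0.24, whereas the median of all tested genes was 0.00. The share called was 61.3% for these and 63.6% for fatty acid genes, against 41.3% of all tested genes. MSMO1, a demethylase of the pathway, stood at 128 and 130.3 CPM in the mutant rescue, against 74.7 and 72.5 CPM in the wild-type rescue (0.81, SE 0.04). The pathway enzymes FDFT1 and IDI1 rose by 0.75 (SE 0.02) and 0.65 (SE 0.05). TM7SF2, a sterol reductase, fell by 0.18 (SE 0.03), as did PMVK and LBR, by 0.24 (SE 0.06) and 0.24 (SE 0.05); the last 2 calls ended without wild-type rescue library 1 (edgeR adjusted p = 0.0767 and 0.0565). Of 22 fatty acid genes 13 rose and 1 fell (0 without mutant rescue library 1), with a median of 0.14. FASN, fatty acid synthase, stood at 3323 and 3229 CPM in the mutant rescue, against 1565 and 1628 CPM in the wild-type rescue (1.04, SE 0.02), and at 1750 and 1797 CPM in the knockdown and 2712 and 2723 CPM in the control. SCD, the desaturase, rose by 0.51 (SE 0.02), the phosphatidate phosphatase LPIN1 by 0.56 (SE 0.05) and SREBF1, the gene of the controlling factor, by 0.40 (SE 0.02).

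MYC and the genes that build ribosomes moved the other way. MYC, a transcription factor that drives growth genes, stood at 213 and 221 CPM in the mutant rescue, 312 and 313 in the wild-type rescue, then 328 and 328 in the knockdown and 512 and 519 in the control, a fall of 0.52 against the wild-type rescue (SE 0.03). Its antagonist MXD1, which also pairs with MAX, was higher, at 27.5 and 25.1 CPM against 17.2 and 17.7 CPM (0.59, SE 0.08). Of the 11 tested genes of the MYC network 1 rose and 2 fell, and the other 8 were not called; leaving out either mutant rescue library or wild-type rescue library 1 left 1 lower, and without mutant rescue library 2 the number higher was 2. Of 44 factors for rRNA synthesis and ribosome assembly 36 fell and 0 rose (1 without wild-type rescue library 2), with a median of -0.31, and for 35 of the 36 the knockdown lay nearer to the wild-type rescue. NCL, the nucleolar protein nucleolin, stood at 399 and 414 CPM in the mutant rescue, against 644 and 647 CPM in the wild-type rescue (-0.67, SE 0.02). The box C/D ribonucleoprotein NOP58 fell by 0.65 (SE 0.05), NOP16 by 0.61 (SE 0.07) and UTP4, of the small-subunit processome, by 0.58 (SE 0.06), and BOP1 was at -0.78 (SE 0.10). Genes of the ribosomal proteins themselves did not follow: of 77, 31 rose and 5 fell, by small amounts (median 0.05), with RPS19 at 0.15 (SE 0.02). Their share called, 46.8%, was not far from the 41.3% of all tested genes. It was below that of genes at a mean of at least 10 CPM (5629 of 10398). Without wild-type rescue library 1 the number that rose was 19, and the number that fell was 2 without mutant rescue library 2 and 3 without mutant rescue library 1 or wild-type rescue library 2.

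Aminoacyl-tRNA synthetases and heat shock chaperones also held more falls than rises. The shares called were 82.6% and 77.8%, with 57.1% for polyamine genes, against 41.3% of all tested genes. Of 23 cytosolic aminoacyl-tRNA synthetases and their scaffold proteins, which charge tRNAs, 14 fell and 5 rose (median -0.15). FARSB and FARSA, the subunits of the phenylalanine enzyme, fell by 0.49 (SE 0.05) and 0.37 (SE 0.04), and DARS by 0.42 (SE 0.04). AARS and CARS, for alanine and cysteine, were among the 5 that rose, by 0.24 (SE 0.02) and 0.28 (SE 0.05). Of 18 heat shock chaperones 11 fell and 3 rose (median -0.17). HSPA8, the constitutive HSP70, stood at 593 and 613 CPM in the mutant rescue, against 842 and 835 CPM in the wild-type rescue (-0.48, SE 0.02), and the co-chaperone HSPH1 fell by 0.55 (SE 0.04). HSP90AA1 stood at 882 and 878 CPM against 1137 and 1132 CPM (-0.37, SE 0.02), whereas BAG3, a stress-induced co-chaperone, rose by 0.25 (SE 0.04). Of 14 genes of polyamine metabolism 5 rose and 3 fell, and the 2 ends of the pathway moved apart. ODC1, the first enzyme of synthesis, stood at 84.0 and 83.8 CPM in the mutant rescue, against 131 and 132 CPM in the wild-type rescue (-0.65, SE 0.04). SAT1, which acetylates polyamines for export and breakdown, stood at 617 and 632 CPM in the mutant rescue, against 371 and 381 CPM in the wild-type rescue (0.73, SE 0.02).

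Among DNA replication and mitosis genes falls outnumbered rises, but about as many were not called, and several inhibitors of cyclin-dependent kinases were higher. Of 44 DNA replication genes 18 fell and 2 rose (median -0.14), and DESeq2 called 10 lower. The share called was 45.5% for replication genes and 50% for mitosis genes, not far from the 41.3% of all tested genes. MCM4, of the replicative helicase, stood at 70.7 and 67.7 CPM in the mutant rescue, against 108 and 104 CPM in the wild-type rescue (-0.61, SE 0.04). MCM3 and MCM2 fell by 0.49 (SE 0.06) and 0.46 (SE 0.05), while the licensing factor CDT1 rose by 0.28 (SE 0.06). Of 40 mitosis genes 19 fell and 1 rose (0 without mutant rescue library 2 or wild-type rescue library 1), with a median of -0.15. Among the falls were CCNB1, the mitotic cyclin, at -0.40 (SE 0.04), BUB1B at -0.37 (SE 0.05) and PLK1 at -0.33 (SE 0.06). CDKN1A, the p21 inhibitor, stood at 958 and 930 CPM in the mutant rescue, against 516 and 530 CPM in the wild-type rescue (0.85, SE 0.02). CDKN1C (p57) rose by 0.84 (SE 0.12), CDKN2D (p19) by 0.54 (SE 0.07) and CDKN1B (p27) by 0.36 (SE 0.03). Fewer dividing cells and less RNA per dividing cell cannot be told apart in bulk samples.

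Rises outnumbered falls among p53 targets and in the BCL2 family, which holds both inducers and inhibitors of apoptosis. BBC3 is counted in both lists. Of 30 p53 targets 22 rose and 1 fell (median 0.27), against 21.0% and 20.3% of all tested genes called higher and lower. The share called was 76.7% for p53 targets and 56.2% for the BCL2 family, against 41.3% of all tested genes. That of the BCL2 family was close to the share of genes at a mean of at least 10 CPM (5629 of 10398). BBC3, the apoptosis inducer PUMA, stood at 86.1 and 82.4 CPM in the mutant rescue, against 44.6 and 42.3 CPM in the wild-type rescue (0.96, SE 0.05). GADD45A rose by 0.65 (SE 0.05) and the DNA damage sensor DDB2 by 0.62 (SE 0.05), while the kinase PLK2 fell by 0.32 (SE 0.07). Of 16 BCL2 family genes 9 rose (6 by DESeq2) and 0 fell (1 without wild-type rescue library 1), with a median of 0.20. BMF stood at 105 and 112 CPM against 80.4 and 73.4 CPM (0.50, SE 0.04), and PMAIP1, or NOXA, at 52.5 and 55.9 CPM against 41.8 and 38.9 CPM (0.43, SE 0.06); both promote cell death. BCL2L2, a survival protein, rose as well, by 0.27 (SE 0.05), and BCL2 was not called, at -0.26 (SE 0.20).

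The lists of stress-response genes each held more rises than falls. The share called was 65.7% for the ATF4 list, 60.6% for immediate early genes and 77.3% for NRF2 targets. It was 57.9% for hypoxia-inducible genes and 60.9% for glycolytic enzymes. Of 35 genes of the ATF4 response and amino acid supply 17 rose and 6 fell (median 0.10). Their summed level was highest in the control, at 4654 and 4673 CPM. It was 3941 and 3892 CPM in the mutant rescue and 3502 and 3519 CPM in the wild-type rescue. The control mean lay nearer to the wild-type rescue in 7 of the 23 called members. DDIT3, the factor CHOP, stood at 60.01 and 66.6 CPM in the mutant rescue, against 34.0 and 33.6 CPM in the wild-type rescue (0.91, SE 0.06), and TRIB3, which binds ATF4, rose by 0.59 (SE 0.05). The glutamine and neutral amino acid carriers SLC38A1 and SLC38A2 fell by 0.37 (SE 0.04) and 0.33 (SE 0.04). Of 22 genes of the unfolded protein response 9 rose and 1 fell (0 by DESeq2, 3 at a mean of at least 10 CPM), with a median of 0.05. The share called, 45.5%, was close to the 41.3% of all tested genes. HERPUD1, of the degradation machinery of the endoplasmic reticulum, was at 0.71 (SE 0.04) and the co-chaperone DNAJB9 at 0.57 (SE 0.07). Of 33 immediate early and stress genes 18 rose and 2 fell (1 without mutant rescue library 2), with a median of 0.28. JUND, an AP-1 subunit, stood at 548 and 524 CPM against 319 and 313 CPM (0.76, SE 0.02), ZFP36, which destabilizes messages, rose by 0.59 (SE 0.05), and DUSP4, a phosphatase of MAP kinases, fell by 0.69 (SE 0.04). Of 22 NRF2 targets, which protect against oxidants, 14 rose and 3 fell (median 0.21); without mutant rescue library 1 the number that fell was 0, and without mutant rescue library 2 or wild-type rescue library 1 it was 1. HMOX1, which breaks down heme, stood at 95.3 and 92.5 CPM in the mutant rescue, against 44.3 and 51.1 CPM in the wild-type rescue (0.97, SE 0.05), and FTH1, the ferritin heavy chain, at 1274 and 1270 CPM against 854 and 864 CPM (0.57, SE 0.02). Of 19 hypoxia-inducible genes 10 rose and 1 fell (0 without mutant rescue library 2), with a median of 0.17 and VEGFA at 0.34 (SE 0.03), whereas of 23 glycolytic enzymes, many of which the hypoxia factor HIF1 also induces, 12 fell and 2 rose (median -0.10). LDHA, lactate dehydrogenase, stood at 262 and 257 CPM in the mutant rescue, against 370 and 361 CPM in the wild-type rescue (-0.49, SE 0.02), and ENO1 and PKM fell by 0.35 (SE 0.02) and 0.27 (SE 0.02).

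Among all 38 gene lists the circadian clock had the highest median, 0.42. The clock is a loop in which CLOCK and ARNTL switch on PER, CRY and NR1D1 genes, whose products switch them off. Of 19 tested members 12 rose and 2 fell, a share of 73.7% called against 41.3% of all tested genes. After PER1, CRY2 stood at 78.9 and 77.2 CPM in the mutant rescue, against 49.0 and 47.4 CPM in the wild-type rescue (0.70, SE 0.05). NR1D1, the repressor REV-ERBα, rose by 0.63 (SE 0.08) and DBP, an output factor, by 0.62 (SE 0.05). CLOCK itself fell by 0.24 (SE 0.05) and HLF by 0.35 (SE 0.10), and ARNTL was not called, at 0.22 (SE 0.11). The labels do not say at what time of day or at what interval after a medium change the cells were taken.

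**Figure D4:**
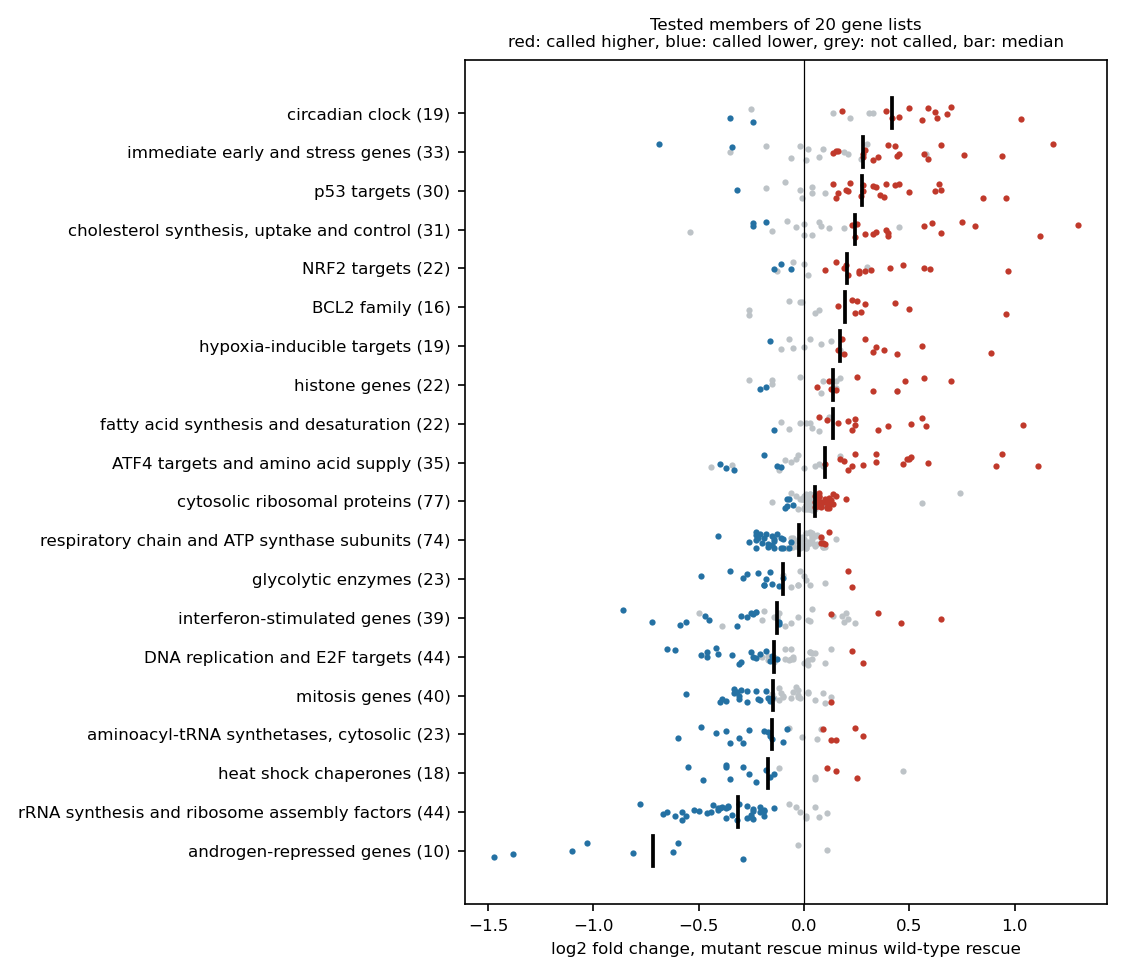
Log2 fold change (mutant rescue minus wild-type rescue, horizontal axis) of every tested member of 20 gene lists, with the number tested in brackets; red and blue points were called higher and lower, grey points were not called, and bars are medians. Medians run from -0.71 for androgen-repressed genes to 0.42 for the circadian clock.

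Genes of the prostate lineage moved in both directions. The share called was 60% for lineage factors and 70.6% for androgen-induced genes, against 41.3% of all tested genes. It was 80% for androgen-repressed genes and 75% for luminal structure genes. Of 15 luminal lineage factors and coregulators 5 rose and 4 fell, with the pioneer factor FOXA1 at -0.18 (SE 0.02) and GATA2 at 0.25 (SE 0.02). Of 34 androgen-induced genes 12 rose and 12 fell (median -0.01), with ZBTB16 at 0.62 (SE 0.05), the metalloreductase STEAP2 at -0.49 (SE 0.02) and FOLH1, the prostate-specific membrane antigen, at -0.39 (SE 0.02). Of 10 androgen-repressed genes 8 fell and 0 rose (median -0.71), 4 of them at a mean of at least 10 CPM, but members of the UGT2B family, which conjugate steroids, make up much of this list and are near-identical, so that reads may be shared between them. UGT2B15 stood at 32.1 and 31.8 CPM in the mutant rescue, against 67.6 and 69.1 CPM in the wild-type rescue, then 79.0 and 73.1 in the knockdown and 14.3 and 14.9 in the control (-1.10, SE 0.05). Of 24 genes of luminal epithelial structure 9 rose and 9 fell, with the tight-junction gene CLDN4 at 0.51 (SE 0.02) and the epithelial transcription factor ELF3 at 0.49 (SE 0.03), and TJP1 at -0.29 (SE 0.02) and AGR2 at -0.71 (SE 0.10).

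Inflammatory genes were split. Of 20 NF-kappaB response genes 6 rose and 6 fell (median 0.04), a share of 60% called against 41.3% of all tested genes. The inhibitor NFKBIA rose by 0.32 (SE 0.03), SOD2 by 0.40 (SE 0.04) and TNF by 0.57 (SE 0.12), while the chemokines CXCL8 and CCL20 fell by 0.81 (SE 0.12) and 0.61 (SE 0.06). CCL20 stood at 37.2 and 36.9 CPM in the mutant rescue, 55.1 and 57.7 in the wild-type rescue, then 50.2 and 51.8 in the knockdown and 8.84 and 8.38 in the control. Of 39 interferon-stimulated genes 14 fell and 4 rose (median -0.13), the transcription factor IRF1 being the highest of the rises (0.65, SE 0.06) and HERC6 one of the falls (-0.72, SE 0.11). The share called, 46.2%, was not far from the 41.3% of all tested genes. Without mutant rescue library 1 the number that fell was 9, and by DESeq2 it was 7.

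Of 22 histone genes 10 rose and 2 fell (median 0.14), with HIST2H2BE at 0.57 (SE 0.03) and H1F0, a linker histone of cells that have stopped dividing, at 0.48 (SE 0.02). Of 74 subunits of the respiratory chain and ATP synthase 25 fell (15 by DESeq2) and 5 rose (1 by DESeq2, 3 without wild-type rescue library 1; median -0.03), a share of 40.5% called that is close to the 41.3% of all genes, with NDUFA8 at -0.41 (SE 0.05). Of 26 genes of AKT and mTOR signalling 9 rose and 4 fell (1 by DESeq2, 2 without mutant rescue library 2 or wild-type rescue library 1), with the mTOR inhibitor DDIT4 at 0.51 (SE 0.02) and the phosphatase INPP4B at -0.52 (SE 0.10). Of 26 lysosome and autophagy genes 10 rose (6 by DESeq2) and 5 fell, with GABARAPL1 at 0.40 (SE 0.03) and ATG7 at -0.50 (SE 0.09). Of 27 integrin and focal adhesion genes 9 rose and 4 fell (2 by DESeq2 and without mutant rescue library 1 or wild-type rescue library 1). Of 8 SOCS family genes, which dampen cytokine signals, 4 rose and 0 fell (median 0.28), with SOCS7 at 0.22 (SE 0.04), but 2 rose by DESeq2. Shares called were 50% for AKT and mTOR signalling, 48.1% for integrins and focal adhesion and 50% for the SOCS family. These shares were not far from the 41.3% of all tested genes. The share was 54.5% for histone genes and 57.7% for lysosome and autophagy genes. It was 62.5% for long noncoding RNAs and for CDK inhibitors and G1 cyclins. Of 16 long noncoding RNAs 6 rose and 4 fell (1 by DESeq2, 2 without mutant rescue library 1), with KCNQ1OT1 at 0.45 (SE 0.05), MALAT1 at 0.21 (SE 0.02) and PCAT1 at -0.50 (SE 0.10). Of 16 CDK inhibitors and G1 cyclins and partners, counted with the inhibitors above, 6 rose and 4 fell (2 without mutant rescue library 1), with RB1 at -0.32 (SE 0.06).

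Genes that rose and genes that fell differed in base composition. The median transcript GC was 53.1% for genes called higher, 45.2% for genes called lower and 49.9% for those not called. Over 10836 genes at 5 CPM or more with a matched transcript, Spearman's rho between GC and log2 fold change was 0.217; the figure is across genes, which are not independent replicates, and all fold changes share the same 4 libraries. In the decile with the lowest GC 191 genes were called higher and 339 lower, and in the decile with the highest 437 and 133. Gene length showed a rho of 0.014 over 11580 genes. GGACT, one form of the sequence that METTL3 methylates, occurred 0.998 times per kb in the median gene called higher, 0.857 in the median gene called lower and 0.945 in the median gene not called (rho 0.086). GGACT is itself mostly G and C, and the sets were not matched in GC. A relation to methylation was therefore not tested. In an added fit that removes the GC trend, chosen with the results in view, 6193 genes were called, 5462 of them also called without it, and the counts of the 20 plotted lists in their main direction each stayed within 1.5 times.

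**Figure D5:**
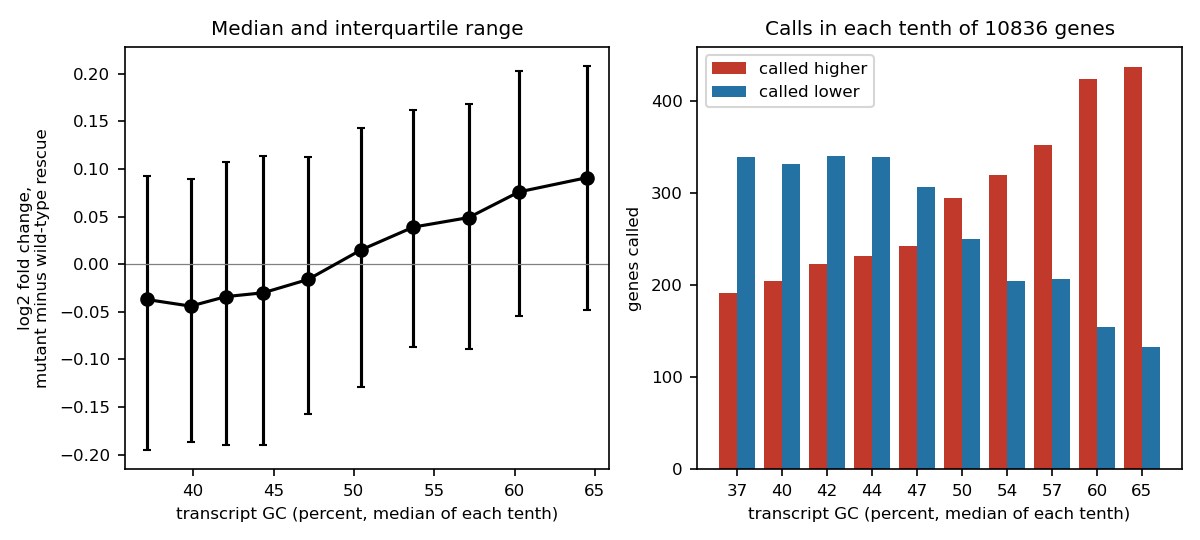
Left, the median log2 fold change with its interquartile range in deciles of 10836 genes ordered by transcript GC; right, the number of genes called higher (red) and lower (blue) in each decile. Calls go from 191 higher and 339 lower in the lowest decile to 437 higher and 133 lower in the highest.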

How the data were processed

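RNA of 8 LNCaP libraries was extracted with TRIzol and prepared with a stranded messenger RNA kit, per the labels' protocols. Per the submitters' processing notes, STAR 2.5.2b and featureCounts were used with hg19, beside CASAVA and DESeq2; parameters are not given in the sources used here. The deposited values are unnormalized counts for each gene and library, per the file headers, beside an other column with gene length. Counts were analysed here with edgeR 4.0.16 in R 4.3.3: filterByExpr (minimum count 10, minimum total 15), TMM, a robust quasi-likelihood fit with 1 mean per group over all 8 libraries, two-sided tests, and Benjamini-Hochberg adjustment over all 15289 tested genes. An exact permutation test of 2 libraries against 2 cannot go below 0.05, so adjusted p-values come from models across genes. Standard errors were derived from the F statistic. CPM are these counts scaled by total and TMM factor. Depth was 15200343 to 17893241 counts, which sets the counting error alone, as PCR copies were not marked.

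The 38 gene lists, the naming rule and the comparisons were chosen with earlier results of these data known, so no list was tested. Some genes belong to more than 1 list, such as ME1 to the fatty acid and NRF2 lists, so counts of different lists are not independent. Named genes are METTL3, the 15 largest rises and falls at a mean of 5 CPM or more, the 8 largest at 100 CPM or more, and in each list regulators and up to 5 called members per direction with the largest changes; not all are named, some are not reported here, and some members not called are given with their values. Transcript GC and GGACT came from 1 GENCODE transcript per matched symbol, for 86.7% of tested genes, and promoters from RefSeq. The alternatives were size factors of DESeq2 1.42.0, no low-count filter, a mean of at least 10 CPM, the DESeq2 Wald test, only the 4 rescue libraries, the replicate number as a block, a length trend removed (lowess, span 0.3), each rescue library left out, and a GC trend removed. The fit was also run on simulated data in which every gene had the same spread and few genes differed. Those settings differ from these data, so that run is no support for the calls made here.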

Additional observations from a re-analysis of the deposited data

How the results depend on the processing

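With the DESeq2 Wald test 1947 genes were called higher and 1802 lower, the interferon-stimulated genes that fell numbered 7, the DNA replication genes that fell 10 and the respiratory chain subunits that fell 15, and METTL3 was at 0.0730 (adjusted p = 0.193). At a mean of at least 10 CPM, which leaves fewer genes, 4 androgen-repressed genes fell. Leaving out each rescue library gave 2545 to 2702 genes higher and 2414 to 2591 lower, METTL3 at 0.0393 to 0.110 (edgeR adjusted p = 0.00324 to 0.346), 9 to 13 interferon-stimulated genes lower and 19 to 33 ribosomal protein genes higher. The other library of the group was then assumed to vary like the other groups. The cause of these shifts was not tested, and the other counts of the 20 plotted lists in their main direction stayed within 1.5 times of those reported under each alternative run. Counts in the opposite direction, of few genes, moved further in several lists; with DESeq2 0 NRF2 targets fell and 1 respiratory chain subunit rose, and with the GC trend removed 8 ribosomal protein genes fell and 4 DNA replication genes rose. Of 3447 log2 fold changes of 291 genes that the naming rule covers, over 12 alternatives, 3260 kept their direction and their side of the threshold. The replicate numbers did not pair the samples: same-numbered libraries of the rescues deviated together with a correlation of 0.025. With the replicate block 6340 genes were called, and no call of these 291 genes changed. Genes under a few CPM are limited by depth.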
